A study of Mus musculus with 21 samples.

Results

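The genes described are 10 genes with roles in DNA repair, damage tolerance and nucleotide supply, grouped here as p53 targets or relatives of such targets. Whether p53 acts on each of them in these mouse cells was not tested. The genes are Xpc, Ddb2, Ercc5, Polk, Polh, Rev3l, Rrm2b, Gadd45a, Gadd45b and Gadd45g. They were taken by symbol from the 20900 genes of a deposited log2 expression table, and all 10 passed the filter on low values, a log2 value above 0 in at least 3 of the 21 libraries. Poly(A) RNA was sequenced from E14 cells, a mouse embryonic stem cell line grown in serum with leukaemia inhibitory factor. The inhibitors were BMH-21 and CX-5461, each at 1 µM, compounds that block transcription of ribosomal DNA by RNA polymerase I. There were 7 groups of 3 replicates: untreated cells at 0 h, cells after 2, 4 and 8 h of BMH-21, and cells after 2, 4 and 8 h of CX-5461. The 0 h cells were the control for both inhibitors, so the effect of an inhibitor and that of time in fresh medium cannot be told apart. Nothing in the labels says that the replicates were separate cultures, so p-values measure the spread between these samples, which may be technical. That spread was estimated largely over all genes together.

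The transcription factor p53 accumulates when DNA is damaged or ribosome assembly fails, and it raises the transcription of genes for arrest, death and repair. In nucleotide excision repair, the proteins XPC and DDB2 find damaged bases, and XPG, the product of Ercc5, cuts the damaged strand on its 3′ side. DNA polymerases kappa (Polk), eta (Polh) and zeta (catalytic subunit Rev3l) copy past damaged bases that stop the replicative polymerases. Rrm2b encodes a p53-inducible small subunit of ribonucleotide reductase, which makes deoxynucleotides, and the Gadd45 proteins are small stress proteins that bind PCNA, cyclin B kinase and a kinase upstream of p38 and JNK.

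The libraries held 46604397 to 62812641 reads over the genes of the table, and a member had between 167 reads (Ddb2) and 10085 reads (Ercc5) in a library. A deposited value is the log2 of reads plus 0.5 on a CPM scale (reads relative to library size) whose library size carries a factor per library. These factors ran from 0.832 to 1.375, against 0.941 to 1.107 for median-ratio factors of the same reads, and on the deposited scale the median change of all genes from control at 8 h was -0.40 under BMH-21 and 0.11 under CX-5461. Each change is therefore given as deposited and also after subtracting each library's own median, called centred below. Replicate 2 of BMH-21 at 8 h stood apart from its group, with a chi-square of its reads, divided by its degrees of freedom, of 26.01 and 24.63 against the others, which gave 4.93 between them. All 9 stem cell markers checked were expressed. Their summed level was 6186 to 7053 CPM in control, and at 8 h it was 2938 to 3125 under BMH-21 and 5583 to 5996 under CX-5461. The summed level of 7 trophectoderm markers was 89.2 to 97.7 in control and 62.8 to 85.0 at 2 and 4 h, and at 8 h it was 169.0 to 191.8 under BMH-21 and 153.5 to 173.2 under CX-5461. Within that list Krt7 went from a mean log2 value of 0.99 in control to 5.66 at 8 h of BMH-21 and Tfap2c from 6.20 to 6.88, while Eomes went from 2.18 to 1.08 and Krt18 from 3.57 to 2.83. The summed level of 6 neural markers was 217.7 to 239.7 in control, 107.0 to 121.7 at 8 h of BMH-21 and 271.4 to 284.0 at 8 h of CX-5461. For 8 fibroblast markers the sums were 32.6 to 37.0, 45.4 to 56.0 and 46.4 to 47.4, and for 7 primitive endoderm markers 15.5 to 29.9 over all groups. No marker was at 0 reads throughout a group, and the part of these shifts in the results was not tested.

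Polk and Ercc5 were higher than control in all 6 comparisons, Gadd45a was lower in all 6, and these directions and calls were the same after centring. Of the other 7 members, Polh, Rev3l, Rrm2b, Gadd45b and Gadd45g changed at some times on either scale, while the changes of Xpc were small. Those of Ddb2 passed the test as deposited at 8 h of BMH-21 alone and not after centring. The 3 p53 targets outside the 10 that served as a check rose in every comparison: Cdkn1a, a cyclin-dependent kinase inhibitor, by 1.87 to 2.70 on the log2 scale, Mdm2, the ubiquitin ligase of p53, by 1.75 to 3.01, and Ccng1 by 1.39 to 2.20. The mRNA of p53 itself (Trp53) fell by 1.38 at 8 h under BMH-21 and by 0.68 under CX-5461 as deposited (-1.17 and -0.9 after centring). In bulk RNA, fewer cells with a transcript and less of it per cell cannot be told apart.

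After 2 h of BMH-21, 6 of the 10 members passed limma's test at an adjusted p under 0.05 (3 higher, 3 lower), where 19.7% of the 14666 genes tested passed. After 4 h the count was 6 (3 higher, 3 lower) against 67% of all genes, and after 8 h it was 10 (4 higher, 6 lower) against 81.5%. At that time 24.5% of all genes were higher and 56.9% lower. Under CX-5461, 5 members passed at 2 h, 2 of them higher, where 27.9% of all genes passed. At 4 h 7 passed, 4 of them higher, against 70.9%. At 8 h 5 passed, 4 of them higher and 1 lower, against 49.4%, with 35.1% of all genes higher and 14.3% lower. A count of members near these shares is no result about the members. The median change of the 10 lay near that of all genes at 8 h: -0.33 against -0.40 for BMH-21, and 0.17 against 0.11 for CX-5461. After centring, 8 members passed at 8 h of each inhibitor, 4 higher and 4 lower, where 84.6% (BMH-21) and 74% (CX-5461) of all genes passed. The same 4 members, Polk, Rrm2b, Ercc5 and Gadd45g, were higher at 8 h under both inhibitors on either scale. These comparisons share the 3 control libraries.

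**Figure D1:**
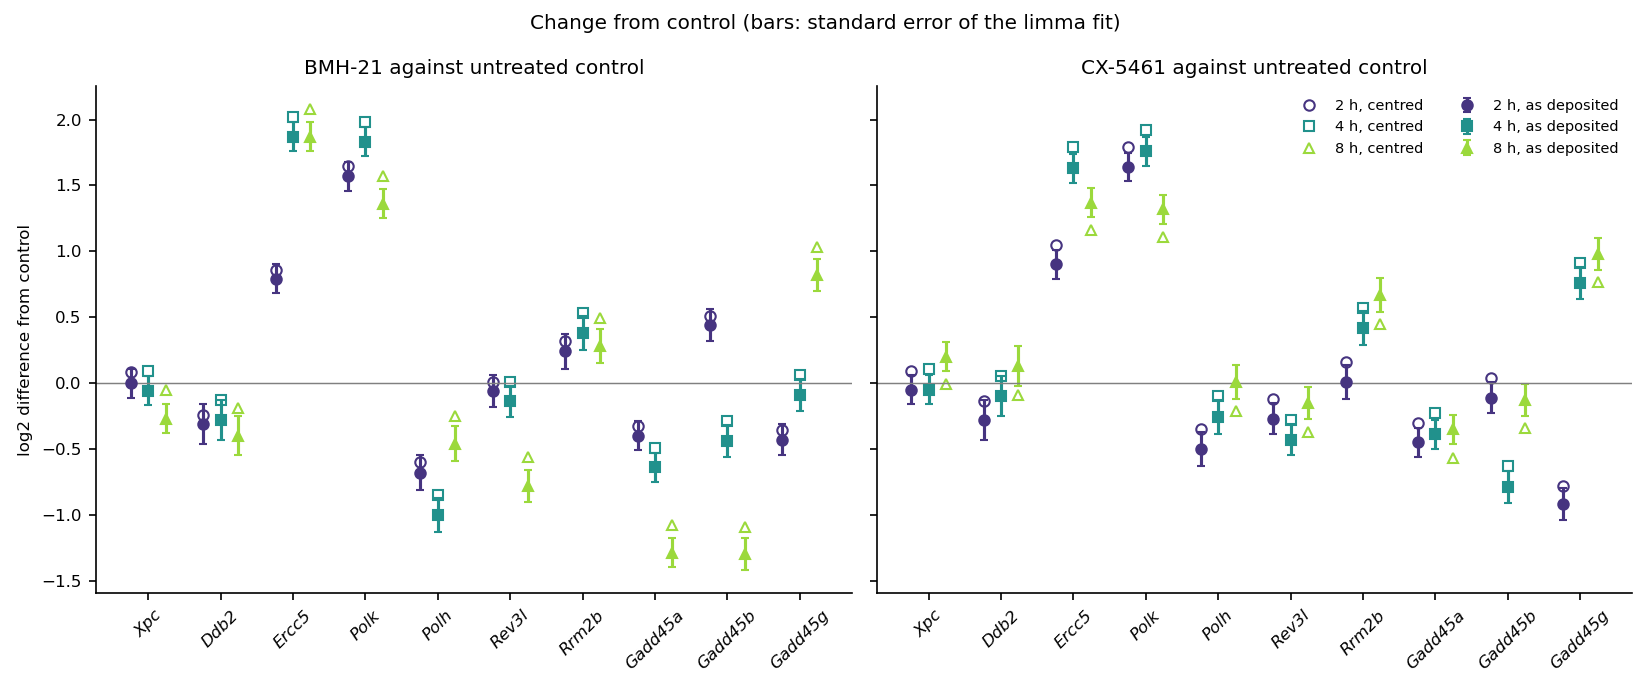
Log2 difference from the untreated control (y axis) for each of the 10 genes (x axis) after 2, 4 and 8 h of BMH-21 (left) and CX-5461 (right). Filled symbols with bars are deposited values with the standard error of the limma fit, and open symbols are centred values. Polk and Ercc5 lie above 0 throughout and Gadd45a below 0. Xpc stays near 0 and Ddb2 lies between -0.40 and 0.13 as deposited. Both can change side with the scaling, Ddb2 at 4 and 8 h of CX-5461 alone.

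RefSeq promoter windows (GRCm38.p6), from 250 bases before to 50 bases after a start, were given for 6 of the 10 genes: Ercc5, Polk, Polh, Gadd45a, Gadd45b and Gadd45g. Xpc, Ddb2, Rrm2b and Rev3l had no entry. They were searched on both strands for the p53 response element, a pair of 10-base p53 decamers 0 to 13 bases apart, allowing 3 mismatches over the pair while keeping the core C and G of each decamer. Such a pair was found in the windows of Gadd45a and Gadd45b, and 15.6% of all 32851 windows of that length held one. The Gadd45a pair has 2 mismatches (4.09% of windows hold a pair with at most 2) and starts 56 bases before the RefSeq start, at chr6:67037438-67037463 on the minus strand. Its second decamer matches exactly, as 8.36% of windows do at least once. The RefSeq start of Gadd45a, at 67037407, lies 50 bases inside the GENCODE gene, so the pair spans the GENCODE start at 67037457. For Gadd45b the RefSeq start lies 18 bases inside the GENCODE gene. The Gadd45b pair has 3 mismatches and starts 86 bases before the RefSeq start, at chr10:80930005-80930029 on the plus strand. Both are shown because these genes fell together after 8 h of BMH-21, with the decamers in capitals:
Gadd45a: GGACCTGGTTggctgaGGGCTAGCCC
Gadd45b: GCGCATGCCTccagtGGCCACGCCT
The windows of Ercc5, Polk, Polh and Gadd45g held no pair within 3 mismatches, which says only that these letters are not in these windows. A second Polk window, at an internal start, held 1 exact decamer, GAACTAGCCT at chr13:96519409-96519418. The 250 bases before the start of Ercc5 (chr1:44147494-44147743, plus strand) and Polk (chr13:96542580-96542829, minus strand) are shown because these 2 genes rose together, with the stretch nearest to a decamer in capitals (3 mismatches in Ercc5, 2 in Polk):
Ercc5: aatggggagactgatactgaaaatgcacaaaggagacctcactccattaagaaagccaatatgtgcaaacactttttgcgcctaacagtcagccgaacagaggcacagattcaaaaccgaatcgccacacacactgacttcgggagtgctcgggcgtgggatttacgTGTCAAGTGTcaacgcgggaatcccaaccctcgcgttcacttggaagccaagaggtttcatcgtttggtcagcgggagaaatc
Polk: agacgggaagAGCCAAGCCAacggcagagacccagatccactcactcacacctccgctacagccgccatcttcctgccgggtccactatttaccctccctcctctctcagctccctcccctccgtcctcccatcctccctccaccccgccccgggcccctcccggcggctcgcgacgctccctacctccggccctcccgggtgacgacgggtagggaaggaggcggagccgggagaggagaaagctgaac
The 2 upstream stretches differ in base composition, with 50% G and C and 14 CpG pairs in Ercc5 against 68.0% and 19 in Polk.

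Among the excision repair members, Ercc5 (GRCm38 chr1:44147744-44181260, plus strand) rose up to 4 h under both inhibitors and, as deposited, no further by 8 h. The 3 control libraries had log2 values of 5.21, 5.19 and 4.99. BMH-21 libraries had 5.81, 6.08 and 5.87 at 2 h, 7.14, 6.93 and 6.93 at 4 h, and 7.04, 6.87 and 7.09 at 8 h. CX-5461 libraries had 6.15, 5.96 and 5.98 at 2 h, 6.66, 6.94 and 6.70 at 4 h, and 6.56, 6.49 and 6.46 at 8 h. Every treated library lay above every control library. The BMH-21 means were 1.73-fold, 3.66-fold and 3.65-fold the control at the 3 times, log2 differences of 0.79, 1.87 and 1.87 (SE 0.11; limma adjusted p 1.1e-09, 1.0e-33 and 6.2e-34) and 0.86, 2.02 and 2.08 after centring. The CX-5461 means were 1.86-fold, 3.11-fold and 2.59-fold the control, log2 differences of 0.90, 1.63 and 1.37 (SE 0.11; limma adjusted p 5.1e-12, 9.1e-29 and 5.6e-23) and 1.05, 1.79 and 1.16 after centring. From 2 to 4 h Ercc5 rose by 1.08 under BMH-21 and by 0.74 under CX-5461. Under BMH-21 it changed from 4 to 8 h by 0.06 after centring (limma adjusted p 0.12) and by 0.17 with median-ratio factors (limma adjusted p 1.2e-04). From 4 to 8 h it fell by 0.26 under CX-5461 (0.64 after centring, -0.64), a call lost on the deposited scale without CX-5461 4 h replicate 2 (-0.18), CX-5461 8 h replicate 2 (-0.26) or CX-5461 8 h replicate 3 (-0.24). At 8 h the level was 0.50 higher under BMH-21 than under CX-5461 (SE 0.11; limma adjusted p 1.8e-05), 0.93 after centring, and the groups did not overlap. Without the outlying replicate 2 of BMH-21 8 h, the 8 h rise of Ercc5 was 1.94.

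The damage recognition genes moved less than Ercc5. Xpc (chr6:91489305-91515888, minus strand), which starts repair across the genome, had control values of 5.12, 5.08 and 4.96, and its treated libraries ran from 4.63 to 5.28. The BMH-21 8 h libraries, at 4.81, 4.63 and 4.92, all lay below control, as did some libraries of other groups, and the highest the CX-5461 8 h libraries, at 5.28, 5.26 and 5.23. On the deposited scale Xpc fell by 0.27 after 8 h of BMH-21 (SE 0.11; limma adjusted p 0.022), but the centred value was -0.05 and the median-ratio value 0.09, past the test in the other direction, and the call was lost without control replicate 1 (-0.23), control replicate 2 (-0.25) or BMH-21 8 h replicate 2 (-0.19). The other Xpc differences from control did not pass the test as deposited. Under BMH-21 they were 0.00 (2 h) and -0.06 (4 h), and under CX-5461 they were -0.05, -0.05 and 0.20. After centring they were 0.08, 0.09, 0.09, 0.11 and -0.01, of which the 4 h values of BMH-21 (limma adjusted p 0.045) and CX-5461 (limma adjusted p 0.018) passed. The whole range of the centred group means of Xpc was 0.17, the smallest of the 10.

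Ddb2 (chr2:91211572-91236982, minus strand), a damage sensor that presents ultraviolet lesions to XPC, had control values of 2.22, 2.51 and 2.26. BMH-21 libraries had 1.82, 2.08 and 2.14 at 2 h, 2.24, 1.99 and 1.91 at 4 h, and 1.99, 1.90 and 1.91 at 8 h. CX-5461 libraries had 2.17, 2.00 and 1.98 at 2 h, 2.17, 2.51 and 1.99 at 4 h, and 2.58, 2.19 and 2.61 at 8 h. No treated group lay above the control range, and the BMH-21 groups at 2 and 8 h and the CX-5461 group at 2 h lay below it. As deposited, the difference passed the test at 8 h of BMH-21 only (-0.40, SE 0.15; limma adjusted p 0.0094), which was -0.19 after centring (limma adjusted p 0.10) and was lost without control replicate 2 (-0.31). The differences at 2 and 4 h were -0.31 and -0.28 for BMH-21, and those of CX-5461 were -0.28, -0.10 and 0.13. A share of 23.8% of the exon bases of Ddb2 lies opposite Acp2, a phosphatase gene with a mean of 4.04 in control and 3.10 to 3.5 in all treated groups but CX-5461 8 h (4.04). The kit keeps strand, but whether counting used it is not stated in the sources used here, so reads of the 2 genes may not be told apart.

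Among the polymerases, Polk (chr13:96480690-96542579, minus strand), whose enzyme bypasses bulky minor groove adducts, was already near its highest level at 2 h. Control libraries had 3.83, 3.77 and 3.57. BMH-21 libraries had 5.11, 5.45 and 5.32 at 2 h, 5.71, 5.52 and 5.43 at 4 h, and 5.21, 4.84 and 5.19 at 8 h. CX-5461 libraries had 5.51, 5.22 and 5.37, then 5.37, 5.73 and 5.37, then 5.12, 4.97 and 5.05. Every treated library lay above every control library, the lowest at 4.84 against the highest control at 3.83. BMH-21 levels were 2.97-fold, 3.55-fold and 2.56-fold the control, log2 differences of 1.57, 1.83 and 1.36 (SE 0.11; limma adjusted p 2.1e-24, 1.5e-30 and 2.6e-21), or 1.65, 1.98 and 1.57 after centring. CX-5461 levels were 3.12-fold, 3.40-fold and 2.5-fold the control, log2 differences of 1.64, 1.76 and 1.32 (SE 0.11; limma adjusted p 7.5e-26, 3.6e-29 and 4.0e-20), or 1.79, 1.92 and 1.11 after centring. Polk fell from 4 to 8 h under both inhibitors, by 0.47 under BMH-21 and by 0.44 under CX-5461 (-0.41 and -0.82 after centring). Its rise from 2 to 4 h under BMH-21 was 0.26 as deposited (limma adjusted p 0.047). That call was lost without BMH-21 2 h replicate 1 (0.17) or 3 (0.27), or without BMH-21 4 h replicate 1 (0.18) or 2 (0.27). After centring the rise was 0.33 (limma adjusted p 4.8e-06), with no overlap of the groups. No difference between the inhibitors was detected as deposited: BMH-21 minus CX-5461 was -0.07 at 2 h (95% interval -0.30 to 0.16), 0.07 at 4 h (-0.16 to 0.29) and 0.03 at 8 h (-0.19 to 0.26). After centring the 8 h difference was 0.46 (limma adjusted p 3.3e-08). Without BMH-21 8 h replicate 2 the rise of Polk at 8 h was 1.48.

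Polh (chr17:46171355-46202645, minus strand), the polymerase that copies accurately past ultraviolet thymine dimers, went the opposite way. Control libraries had 3.38, 3.5 and 3.25. BMH-21 libraries had 2.55, 2.89 and 2.64 at 2 h, 2.57, 2.21 and 2.34 at 4 h, and 3.03, 2.69 and 3.03 at 8 h. CX-5461 libraries had 2.97, 2.84 and 2.82, then 3.17, 3.25 and 2.94, then 3.33, 3.32 and 3.5. All BMH-21 libraries lay below control, whereas the CX-5461 libraries lay below it at 2 and 4 h and overlapped it at 8 h. Under BMH-21 the level was 0.62-fold, 0.50-fold and 0.73-fold the control, log2 differences of -0.68, -1.0 and -0.46 (SE 0.13; limma adjusted p 9.5e-06, 9.1e-12 and 7.3e-04). The centred values were -0.60, -0.85 and -0.25, all past the test, and the median-ratio value at 8 h was -0.10, which did not pass. CX-5461 gave -0.50 at 2 h (limma adjusted p 0.0015; -0.35 after centring), -0.26 at 4 h (limma adjusted p 0.063; -0.10) and 0.01 at 8 h (limma adjusted p 0.98; -0.21, which passed). The 4 h value passed without control replicate 3 or without CX-5461 4 h replicate 2 (-0.32 each). At 4 h Polh was 0.75 lower under BMH-21 than under CX-5461 (-0.75, SE 0.13; limma adjusted p 2.5e-06), the same after centring, with no overlap. Under BMH-21 it fell by 0.32 from 2 to 4 h and rose by 0.55 from 4 to 8 h (-0.25 and 0.61 after centring, both past the test). As deposited, the first of these was lost without BMH-21 2 h replicate 2 (-0.22), 4 h replicate 2 (-0.24) or 4 h replicate 3 (-0.31). Without BMH-21 8 h replicate 2 the 8 h difference of Polh from control was -0.34.

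Rev3l (chr10:39732118-39875211, plus strand), the long catalytic subunit of polymerase zeta, had control values of 5.74, 5.76 and 5.56. BMH-21 libraries had 5.42, 5.83 and 5.62 at 2 h, 5.77, 5.54 and 5.32 at 4 h, and 5.20, 4.41 and 5.12 at 8 h. CX-5461 libraries had 5.44, 5.44 and 5.37, then 5.01, 5.53 and 5.22, then 5.60, 5.51 and 5.49. Its lowest value, 4.41, was in BMH-21 8 h replicate 2, the library that stood apart. Rev3l fell by 0.78 after 8 h of BMH-21 (SE 0.12; limma adjusted p 7.9e-09), with a centred value of -0.56, and without that library the fall was -0.53 (limma adjusted p 1.2e-05). Under CX-5461 the differences were -0.27, -0.43 and -0.15, of which 4 h passed (limma adjusted p 0.0011). Centred, they were -0.12, -0.28 and -0.37, with 4 and 8 h past the test, while the median-ratio value at 4 h was -0.18 and did not pass. The BMH-21 differences at 2 and 4 h, -0.06 and -0.14 (0.01 and 0.01 centred), did not pass. The spread of Rev3l within groups was an SD of 0.23 against 0.15 used by the moderated test, so its p-values are too small.

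Rrm2b (chr15:37923952-37961318, minus strand), the inducible ribonucleotide reductase subunit that supplies deoxynucleotides outside S phase, rose modestly. Control libraries had 2.92, 2.88 and 2.83. BMH-21 libraries had 2.83, 3.26 and 3.27 at 2 h, 3.52, 3.22 and 3.03 at 4 h, and 3.21, 2.82 and 3.44 at 8 h. CX-5461 libraries had 2.96, 2.90 and 2.80, then 3.16, 3.53 and 3.19, then 3.71, 3.48 and 3.45. The 4 h groups of both inhibitors and the 8 h group of CX-5461 lay above all control libraries. BMH-21 gave 0.24 (limma adjusted p 0.20), 0.38 (limma adjusted p 0.0076) and 0.28 (limma adjusted p 0.044) at the 3 times, and CX-5461 gave 0.01 (limma adjusted p 0.95), 0.42 (limma adjusted p 0.0033) and 0.67 (limma adjusted p 5.3e-06), each with an SE of 0.13. After centring they were 0.32, 0.53 and 0.49 for BMH-21, all past the test, and 0.16, 0.57 and 0.45 for CX-5461, with 4 and 8 h past it. The deposited 8 h call of BMH-21 was lost without control replicate 1 (0.30), 2 (0.28) or 3 (0.25), or BMH-21 8 h replicate 1 (0.25) or 3 (0.14), and without replicate 2 the value was 0.45. The 4 h calls were lost without BMH-21 4 h replicate 1 (0.25) and without CX-5461 4 h replicate 2 (0.30), and the 2 h value of BMH-21 passed without BMH-21 2 h replicate 1 (0.39). Under CX-5461 Rrm2b rose by 0.40 from 2 to 4 h, a call lost without CX-5461 4 h replicate 2 (0.29). Within groups the SD of Rrm2b was 0.20 against 0.16 used by the moderated test, and its deposited 8 h call under BMH-21 was also lost with no filter on low values. An antisense gene, Gm49085, not analysed here, covers 8.0% of the Rrm2b exon bases.

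The 3 Gadd45 genes each followed their own course. Gadd45a (chr6:67035096-67037457, minus strand), the classic DNA damage-inducible member, was lower than control throughout. Control libraries had 5.63, 5.68 and 5.38. BMH-21 libraries had 5.08, 5.20 and 5.19 at 2 h, 5.02, 4.81 and 4.95 at 4 h, and 4.26, 4.18 and 4.36 at 8 h. CX-5461 libraries had 5.28, 4.95 and 5.10, then 5.07, 5.36 and 5.07, then 5.36, 5.13 and 5.14. No treated library reached the lowest control library. Under BMH-21 the fall deepened, to 0.76-fold, 0.64-fold and 0.41-fold the control (-0.40, -0.64 and -1.29, SE 0.11; limma adjusted p 0.0039, 3.0e-07 and 1.2e-20), and centred values were -0.33, -0.49 and -1.08. Under CX-5461 it stayed, as deposited, between 0.73-fold and 0.78-fold (-0.45, -0.39 and -0.35, SE 0.11; limma adjusted p 0.0010, 0.0013 and 0.0059), while centred values were -0.30, -0.23 and -0.57. The BMH-21 2 h call (-0.35) and the CX-5461 8 h call (-0.29) were lost without control replicate 2. From 4 to 8 h Gadd45a fell by a further 0.66 under BMH-21 (-0.59 after centring). Under CX-5461 its change over that interval did not pass as deposited. It passed as a fall after centring, from a centred mean of 5.25 to 4.92, and with median-ratio factors. E230016M11Rik, on the opposite strand, covers 19.1% of its exon bases and had a mean of -0.98 in control.

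Gadd45b (chr10:80930073-80932204, plus strand), the member known for fast induction by cytokines and stress, rose first under BMH-21 and then fell below control. Control libraries had 3.88, 4.08 and 3.99. BMH-21 libraries had 4.28, 4.50 and 4.47 at 2 h, 3.69, 3.49 and 3.44 at 4 h, and 2.67, 2.63 and 2.73 at 8 h. The 2 h libraries were all above control and the later ones all below it, with differences of 0.44, -0.44 and -1.30 (SE 0.12; limma adjusted p 0.0026, 5.0e-04 and 8.2e-20) and centred values of 0.51, -0.29 and -1.09. CX-5461 libraries had 3.93, 3.83 and 3.87 at 2 h, 3.16, 3.33 and 3.09 at 4 h, and 3.97, 3.76 and 3.84 at 8 h. They fell below control at 4 h alone as deposited, with differences of -0.11 (limma adjusted p 0.47), -0.79 (limma adjusted p 2.7e-09) and -0.13 (limma adjusted p 0.38). Centred, the values were 0.04, -0.63 and -0.34, with 4 and 8 h past the test. The fall from 2 to 4 h was seen under both inhibitors (-0.88 for BMH-21 and -0.68 for CX-5461). From 4 to 8 h the gene fell by 0.86 under BMH-21 and rose by 0.66 under CX-5461 (0.28 after centring).

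Gadd45g (chr13:51846678-51848468, plus strand), the third member of the family, ran from below to above control. Control libraries had 3.30, 3.38 and 3.37. BMH-21 libraries had 2.79, 3.07 and 2.90 at 2 h, 3.41, 2.99 and 3.37 at 4 h, and 4.12, 4.21 and 4.17 at 8 h. CX-5461 libraries had 2.60, 2.19 and 2.49, then 4.03, 4.19 and 4.10, then 4.41, 4.31 and 4.27. Under both inhibitors all 2 h libraries lay below control and all 8 h libraries above it. At 4 h the CX-5461 libraries were already above control and the BMH-21 libraries overlapped it. BMH-21 gave -0.43, -0.09 and 0.82 (SE 0.12; limma adjusted p 0.0043, 0.50 and 1.1e-09), or -0.36, 0.06 and 1.03 after centring. CX-5461 gave -0.92, 0.76 and 0.98 (SE 0.12; limma adjusted p 1.7e-10, 2.4e-08 and 3.4e-12), or -0.78, 0.91 and 0.77 after centring. The rise from 2 to 4 h under CX-5461 was 3.20-fold (1.68, limma adjusted p 1.8e-25). Under BMH-21 the rise as deposited was 0.34 from 2 to 4 h, which was lost without BMH-21 2 h replicate 1 (0.27), 4 h replicate 1 (0.26) or 4 h replicate 3 (0.28), and 0.91 from 4 to 8 h. After centring these rises were 0.41 and 0.97, both past the test.

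**Figure D2:**
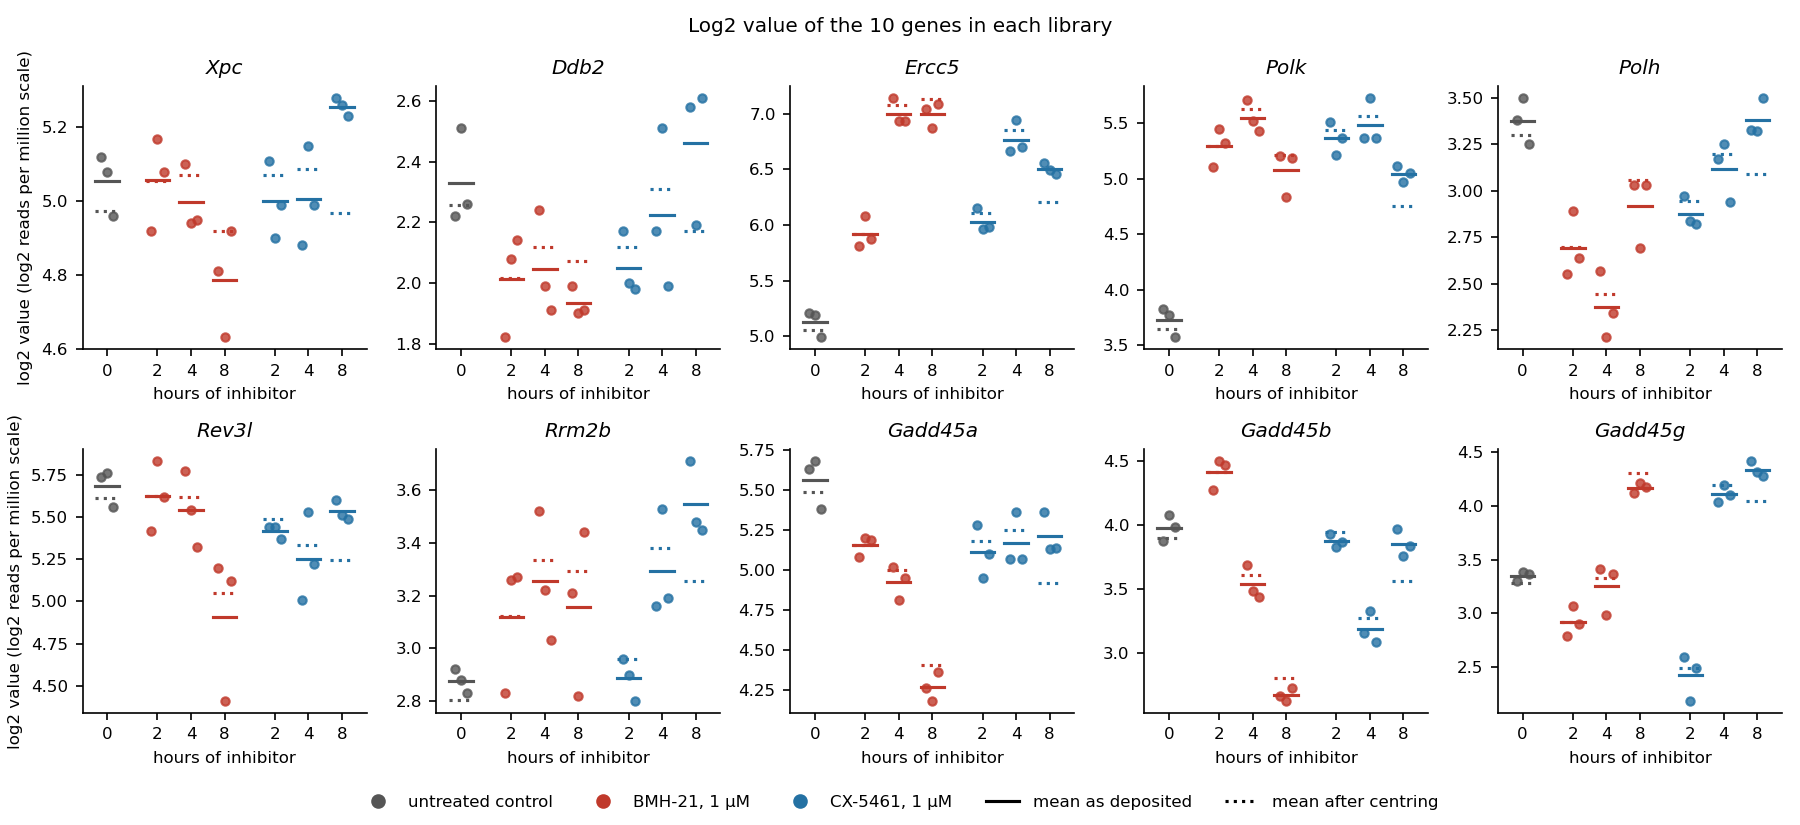
Deposited log2 value (y axis, log2 CPM scale) of each of the 10 genes in each of the 21 libraries against hours of inhibitor (x axis). Points are libraries, solid lines group means as deposited and dotted lines group means after centring. Ercc5 and Polk libraries all lie above control, Gadd45a libraries all below, and Gadd45g moves from below control at 2 h to above it at 8 h.

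Per kilobase of exon (GENCODE M21), the control log2 level was highest for Gadd45a at 4.74 ± 0.16 (SD, n = 3), followed by Gadd45b at 3.31 ± 0.10 and Gadd45g at 3.12 ± 0.05. Xpc at 2.59 ± 0.08 and Ercc5 at 2.58 ± 0.12 did not differ beyond their spread, nor did Ddb2 at 0.88 ± 0.15 and Polh at 0.80 ± 0.12. Rev3l stood at 1.95 ± 0.11, Polk at 1.25 ± 0.14 and Rrm2b lowest at -0.31 ± 0.05. The 2 genes that rose throughout thus began at different levels per length, Ercc5 above Polk.

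The inhibitors were compared at the same dose and time for each of the 10 genes, 30 comparisons in all, with p-values adjusted over all 14666 genes. At 2 h, 2 members differed, where 3.99% of all genes did. Gadd45b was 0.54 higher under BMH-21 than under CX-5461 (limma adjusted p 7.3e-04) and Gadd45g was 0.49 higher (limma adjusted p 0.0046), and in both genes the groups did not overlap. The Gadd45g call was lost without BMH-21 2 h replicate 2 (0.42) or CX-5461 2 h replicate 2 (0.38). At 4 h, 3 members differed against 17.8% of all genes: Polh (given above), Gadd45b, 0.34 higher under BMH-21 (limma adjusted p 0.027), and Gadd45g, with a difference of -0.85 (limma adjusted p 1.4e-08). The Gadd45b call was lost without BMH-21 4 h replicate 1 (0.27), CX-5461 4 h replicate 1 (0.33) or CX-5461 4 h replicate 3 (0.29). Leaving out CX-5461 4 h replicate 2 raised the 4 h count to 5. The pairs that did not pass had 95% intervals within -0.43 (Polh) to 0.49 (Rrm2b) at 2 h and -0.47 (Ddb2) to 0.53 (Rev3l) at 4 h. Polh and Ercc5 at 2 h, and Ercc5, Gadd45a and Rev3l at 4 h, passed after centring (-0.25 and -0.18, and 0.23, -0.25 and 0.28). After centring the counts were 4 at 2 h and 6 at 4 h, against 15.4% and 45.8% of all genes, all 5 deposited calls among them, with nearly the same values for Gadd45b (0.47 and 0.33) and Gadd45g (0.42 and -0.86).

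At 8 h, 8 members differed as deposited (1 higher and 7 lower under BMH-21), where 79.2% of all genes did and the median gene differed by -0.48. Ercc5 was higher. Lower were Gadd45b by 1.18, Gadd45a by 0.94, Rev3l by 0.62, Ddb2 by 0.53, Xpc by 0.47, Polh by 0.46 and Rrm2b by 0.39 (differences of -1.18, -0.94, -0.62, -0.53, -0.47, -0.46 and -0.39, with limma adjusted p from 9.8e-17 to 0.0047). After centring 5 members differed, 3 higher and 2 lower, where 71.7% of all genes differed. Gadd45a (-0.51) and Gadd45b (-0.75) stayed lower and Ercc5 (0.93) higher under BMH-21, and Polk (0.46) and Gadd45g (0.26) were added. The centred values of Rev3l (-0.19), Ddb2 (-0.10), Xpc (-0.04), Polh (-0.04) and Rrm2b (0.04) did not pass. Without BMH-21 8 h replicate 2, 7 members differed and Rrm2b (-0.22) did not. For Gadd45g the deposited 8 h difference was -0.16, with a 95% interval of -0.40 to 0.07, so no difference was detected on that scale.

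**Figure D3:**
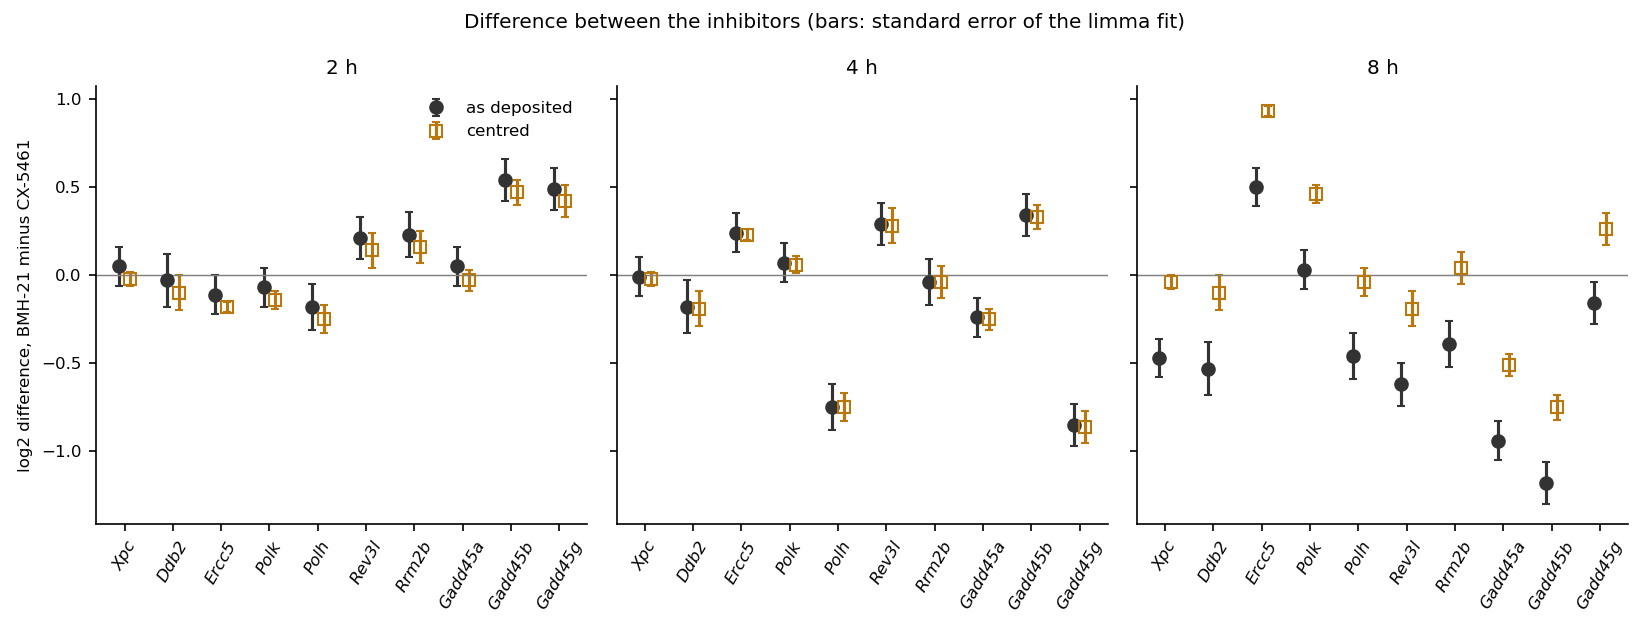
Log2 difference of BMH-21 minus CX-5461 (y axis) for each of the 10 genes (x axis) at 2, 4 and 8 h. Circles are deposited values and squares centred values, with the standard error of each limma fit. The scales agree closely at 2 and 4 h and part at 8 h, where Gadd45a and Gadd45b stay below 0 and Ercc5 above 0 on both.

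Between successive times, 5 members passed the test from 2 to 4 h of BMH-21 (55.6% of all genes) and 6 from 4 to 8 h (56.4%). Under CX-5461 the counts were 4 from 2 to 4 h (47.5%) and 5 from 4 to 8 h (63.7%). Leaving out 1 library gave 3 members from 2 to 4 h of BMH-21, without 2 h replicate 1, 4 h replicate 2 or 4 h replicate 3. From 4 to 8 h of CX-5461 it gave 3 without 4 h replicate 1 or 3 or without any 8 h replicate. In the latter interval the median of all genes moved by 0.34 as deposited. The rises of Xpc (0.25) and Rev3l (0.28) there became -0.12 and -0.09 after centring, and their deposited calls were lost without 4 h replicate 1 (0.19 for Xpc, 0.16 for Rev3l), 4 h replicate 3 (0.24 and 0.26), 8 h replicate 1 (0.24 and 0.25) or 8 h replicate 2 (0.25 and 0.29), and for Xpc also without 8 h replicate 3 (0.26). Rev3l fell by 0.63 from 4 to 8 h of BMH-21, or -0.38 without BMH-21 8 h replicate 2.

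Whether the change from 4 to 8 h differed between the inhibitors was tested directly, as the CX-5461 change minus the BMH-21 change. It passed for 5 members, against 69.4% of all genes with a median of 0.52. Gadd45b gave 1.52 (SE 0.16; limma adjusted p 5.4e-14; 1.08 centred), Rev3l 0.91 (SE 0.17; 2.7e-06; 0.48 centred) and Gadd45a 0.70 (SE 0.16; 6.9e-05; 0.26 centred), so relative to their 4 h level these ended higher under CX-5461 than under BMH-21. Under CX-5461 itself the centred means of Gadd45a and Rev3l went down from 4 to 8 h, from 5.25 to 4.92 and from 5.34 to 5.24. Gadd45g gave -0.68 (SE 0.17; limma adjusted p 2.7e-04; -1.12 centred), since its rise after 4 h was larger under BMH-21. Xpc gave 0.46 (SE 0.16; limma adjusted p 0.0066), but 0.02 after centring. After centring 60.2% of all genes passed. The other 4 members did so and Polk (-0.40), Polh (-0.72) and Ercc5 (-0.70) were added, while the median-ratio value of Gadd45a was 0.16 and did not pass. Without BMH-21 8 h replicate 2 the 5 values were 1.5, 0.66, 0.65, -0.66 and 0.38 in the order given, all past the test.

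Most other genes of excision repair were lower than control after 8 h of BMH-21. Of 30 other excision repair genes, 3 were higher and 25 lower than control after 8 h of BMH-21 (median -0.69, against -0.40 for all genes, of which 24.5% were higher and 56.9% lower). After 8 h of CX-5461, 3 were higher and 7 lower (median -0.16 against 0.11), or 3 and 23 after centring (-0.38 against -0.11). Of all genes, 35.1% were higher and 14.3% lower there as deposited, and 29.3% and 44.7% after centring. At 2 h, 0 were higher and 1 lower under BMH-21 and 0 and 5 under CX-5461, and at 4 h 2 and 16 under BMH-21 and 3 and 25 under CX-5461. The shares of all genes higher and lower were 8.48% and 11.2% (BMH-21) and 7.45% and 20.5% (CX-5461) at 2 h, and 22.1% and 44.9%, and 19.8% and 51.2%, at 4 h. Cul4a, the cullin scaffold of the ligase that holds DDB2, rose by 1.01 and 0.98 at 8 h of BMH-21 and CX-5461. Xrcc1, a scaffold of the ligation step, rose by 1.10 under BMH-21, and Uvssa, a factor of transcription-coupled repair, rose by 1.05 under CX-5461. Rad23b, the stabilising partner of XPC, fell by 1.24 and 0.57, Lig3, a DNA ligase, fell by 1.17 under BMH-21, and Cul4b fell by 0.46 under CX-5461. Ercc5 thus rose in a pathway of which most genes tested were lower at 8 h of BMH-21.

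Of 24 other genes of translesion synthesis and its control, 22 were tested (Pold4 and Poln were below the filter). At 8 h, 2 were higher and 16 lower under BMH-21 (median -0.66 against -0.40 for all genes, with 24.5% higher and 56.9% lower). Under CX-5461, 3 were higher and 6 lower (median -0.09 against 0.11, with 35.1% of all genes higher and 14.3% lower). After centring the CX-5461 counts were 2 and 15, where 29.3% of all genes were higher and 44.7% lower. At 2 h, 1 was higher and 6 lower under BMH-21, where 8.48% of all genes were higher and 11.2% lower. Under CX-5461 the 2 h counts were 1 and 8, against 7.45% and 20.5%. At 4 h the counts were 3 and 16 under BMH-21, against 22.1% and 44.9%, and 2 and 18 under CX-5461, against 19.8% and 51.2%. Rev1, the scaffold on which the bypass polymerases assemble, rose by 0.70 and 0.68 at 8 h of BMH-21 and CX-5461, and Poll rose by 0.45 and 0.46. Pold1, the catalytic subunit of polymerase delta, and Pcna, the sliding clamp, fell by 1.49 and 1.42 under BMH-21. Hltf and Pold2 fell by 0.57 and 0.44 under CX-5461.

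Among 24 other genes of deoxynucleotide supply, 3 were higher and 15 lower after 8 h of BMH-21 (median -0.42 against -0.40 for all genes). Of all genes, 24.5% were higher and 56.9% lower there. After 8 h of CX-5461, 6 were higher and 3 lower (median 0.07 against 0.11, with 35.1% of all genes higher and 14.3% lower). These medians lay close to those of all genes. After centring the CX-5461 counts were 3 and 14, where 29.3% of all genes were higher and 44.7% lower. At 2 h, 0 of the 24 changed under BMH-21 and 1 was higher and 1 lower under CX-5461 (after centring 6 higher and 3 lower, and 5 higher and 1 lower), and at 4 h the counts were 3 and 7, and 1 and 12 (10 and 7, and 7 and 8, after centring). Of all genes, the centred shares higher and lower were 18.6% and 17.5% (BMH-21) and 15.8% and 17.8% (CX-5461) at 2 h. At 4 h they were 32.2% and 41.5%, and 28.5% and 45.7%. As deposited, the shares were 8.48% and 11.2%, and 7.45% and 20.5%, at 2 h. At 4 h as deposited they were 22.1% and 44.9%, and 19.8% and 51.2%. Dctd, which deaminates dCMP, and Shmt1, of the folate cycle, fell by 1.67 and 1.65 under BMH-21 and by 0.43 and 0.40 under CX-5461. Tk2, the mitochondrial thymidine kinase, and Mthfd1 rose by 0.37 and 0.23 under BMH-21, and the nucleotidases Nt5c and Nt5m rose by 0.59 and 0.55 under CX-5461. The other subunits of ribonucleotide reductase, Rrm1 and Rrm2, gave -0.67 (limma adjusted p 7.3e-09) and -0.03 (limma adjusted p 0.77) after 8 h of BMH-21, and 0.08 each under CX-5461, which did not pass. After centring Rrm2 was 0.18 under BMH-21, past the test, and both were -0.13 under CX-5461.

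Of 18 partners of the Gadd45 proteins and genes of the stress kinase cascade, 17 were tested (Tdg was below the filter). At 8 h, 4 were higher and 11 lower under BMH-21 (median -0.53 against -0.40 for all genes, with 24.5% higher and 56.9% lower). Under CX-5461, 4 were higher and 6 lower (median -0.01 against 0.11, with 35.1% of all genes higher and 14.3% lower). After centring the CX-5461 counts were 3 and 11, where 29.3% of all genes were higher and 44.7% lower. At 2 h, 2 were higher and 1 lower under BMH-21, where 8.48% of all genes were higher and 11.2% lower. Under CX-5461 the 2 h counts were 1 and 5, against 7.45% and 20.5%. At 4 h 3 were higher and 10 lower under either inhibitor, against 22.1% and 44.9% (BMH-21) and 19.8% and 51.2% (CX-5461). Cdkn1a, which binds Gadd45 proteins, rose by 2.46 and 1.87, Ddit3, a stress transcription factor, rose by 1.10 under BMH-21, and Map2k4 rose by 0.44 under CX-5461. Mapk11, a p38 kinase, fell by 2.91 and 0.60, Gadd45gip1, a protein that binds Gadd45 proteins, fell by 1.56 under BMH-21, and Ccnb1, a cyclin B, fell by 0.53 under CX-5461. Of 8 other repair genes reported as p53 targets, 1 was higher and 7 lower after 8 h of BMH-21 (median -0.68 against -0.40 for all genes). Of all genes, 24.5% were higher and 56.9% lower there. After 8 h of CX-5461, 2 were higher and 4 lower (median -0.19 against 0.11, with 35.1% of all genes higher and 14.3% lower). After centring the CX-5461 counts were 1 and 6, where 29.3% of all genes were higher and 44.7% lower. At 2 h, 0 were higher and 1 lower under BMH-21, where 8.48% of all genes were higher and 11.2% lower. Under CX-5461 0 changed at 2 h, against 7.45% and 20.5%. At 4 h the counts were 1 and 5 under BMH-21, against 22.1% and 44.9%, and 1 and 6 under CX-5461, against 19.8% and 51.2%. Mgmt, which removes alkyl groups from guanine, rose by 1.54 and 1.28, and Pms2 rose by 0.28 under CX-5461 as deposited (0.06 centred). Apex1, the abasic site endonuclease, fell by 1.73 and 0.46, and Ung, a uracil glycosylase, fell by 0.37 under CX-5461. Pcna stands in 3 of these lists.

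**Figure D4:**
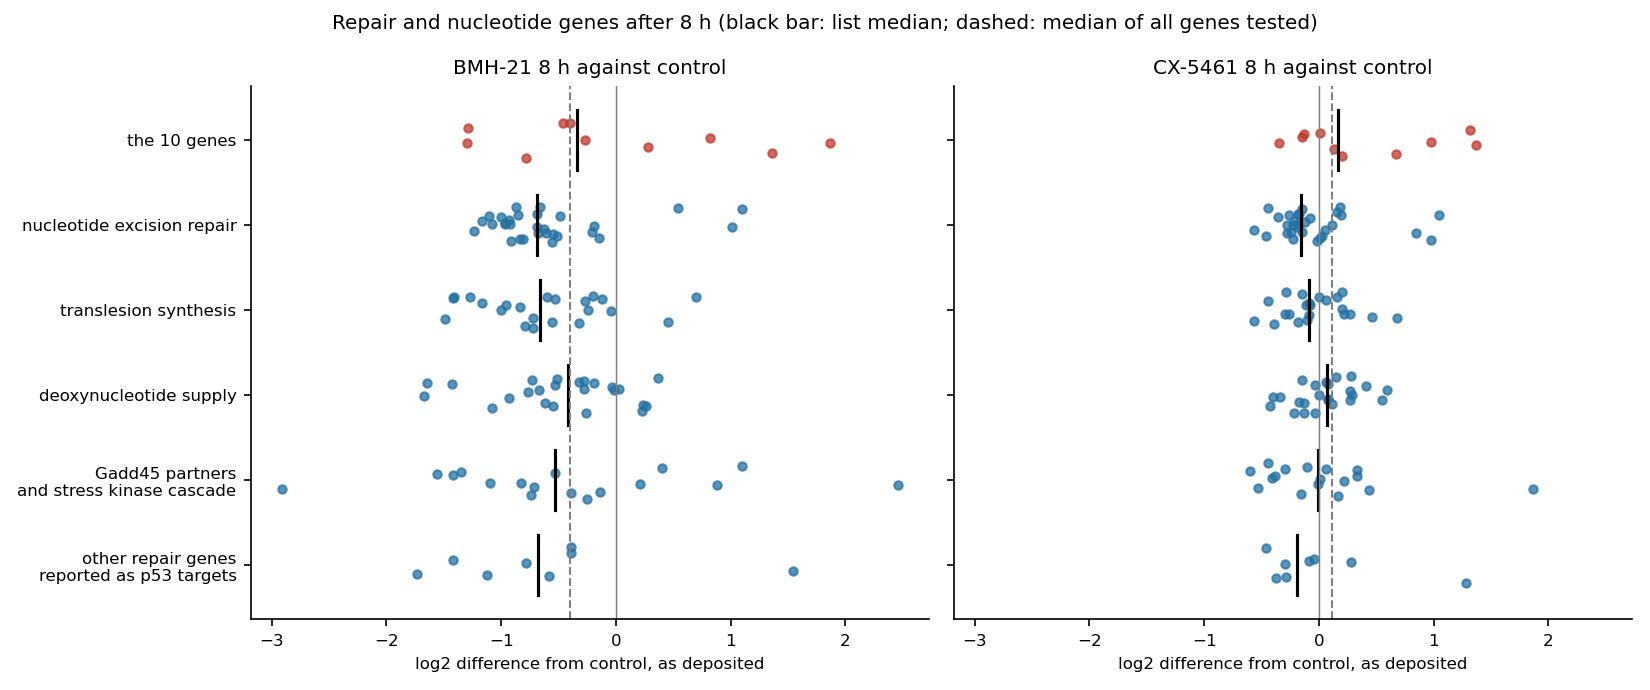
Deposited log2 difference from control (x axis) after 8 h of BMH-21 (left) and CX-5461 (right) for the 10 genes (red) and for each list of related genes (blue, 1 point per gene). The black bar is the list's median and the dashed line the median of all genes tested. The excision repair median lies at -0.69 against -0.40 for all genes under BMH-21 and at -0.16 against 0.11 under CX-5461.

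As a description of shape, each member was set beside the 5296 genes whose centred group means ranged over at least 1 on the log2 scale, by Pearson's r over the 7 group means. These means share libraries and the control, and the values carry no test. Ercc5 was closest to Cyp4f17 (0.999), Mlana (0.999) and Art4 (0.998), and Polk to Zfp750 (0.994), Gpr75 (0.994) and Ak1 (0.984). Gadd45b was closest to Dido1 (0.992), Dmbx1 (0.992) and Ctrl (0.990), Gadd45a to Pianp (0.979), Klf4 (0.972) and 1700001L05Rik (0.972), and Gadd45g to Cyp2c44 (0.973), Ntm (0.961) and Cage1 (0.954). Polh was closest to Spin4 (0.982), Mblac1 (0.964) and D430020J02Rik (0.951), Rrm2b to Sox10 (0.979), Chgb (0.974) and Nwd1 (0.969), and Rev3l to Elovl6 (0.979), Gm5712 (0.978) and Mep1b (0.978). Xpc was closest to Lhx6 (0.968), Kif26a (0.940) and Arhgap27os3 (0.925), and Ddb2 to Fbxo48 (0.955), Clip4 (0.887) and B3galt6 (0.868). Between members, r was 0.89 for Rrm2b and Ercc5, 0.84 for Gadd45b and Rev3l, 0.79 for Polk and Ercc5, and -0.83 for Gadd45b and Gadd45g.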

How the data were processed

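Poly(A) RNA-seq libraries of 7 groups of 3 replicates were analysed, grouped by the labels, from 1 table of 20900 genes, with 0 columns left unmapped. Per the submitters' processing notes, the authors' tools included Trim Galore 0.5.0, TopHat2 2.1.1, R 4.0.5, DESeq2 1.30.1, edgeR 3.32.1 and limma 3.46.0, with the mm10 build; the counting program, annotation and use of strand are not given in the sources used here. The authors deposited log2 values, and all of them (100.0%) gave whole reads to within 1e-06 once an offset of 0.5 reads was removed. That offset understates the changes of low genes.

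From these values, group means were fitted over all 21 libraries with limma 3.58.1 (R 4.3.3), eBayes with trend, two-sided, with Benjamini-Hochberg adjustment at 0.05 over 14666 genes above a log2 value of 0 in at least 3 libraries. The variance prior carried 111.5 degrees of freedom (8.5 after centring) against 14 from replicates. Alternatives were centring, median-ratio factors, quantile normalization, voom weights with TMM factors, other filters, an offset of 5 reads, fits of only the groups compared, a replicate block, and leaving out each library. The fit was tested on simulated reads scaled by their own library totals. That test did not include the factors per library of the deposited values.

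Named genes were the 10 members, 4 p53 genes, the 2 largest rises and falls of each list at 8 h among genes past the test whose groups did not overlap, and the 3 nearest genes by shape. Rrm1 and Rrm2 were named after their values were seen. Members and lists were chosen with earlier results of these data known. Sequences are from RefSeq (GRCm38.p6) and loci from GENCODE M21 (GRCm38).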

Additional observations from a re-analysis of the deposited data

Results flagged for a closer look

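The results here are those in which the effect of the 2 inhibitors differed by a test of the difference itself (limma, adjusted p under 0.05 over all genes, deposited scale), given as BMH-21 minus CX-5461. At 2 h these were Gadd45b (0.54) and Gadd45g (0.49), and at 4 h Polh (-0.75), Gadd45b (0.34) and Gadd45g (-0.85), 5 values that also passed after centring. Of all genes, 3.99% differed at 2 h and 17.8% at 4 h. At 8 h the members were Xpc (-0.47), Ddb2 (-0.53), Polh (-0.46), Rrm2b (-0.39), Ercc5 (0.50), Gadd45a (-0.94), Gadd45b (-1.18) and Rev3l (-0.62), where 79.2% of all genes differed. Of these members, Ercc5, Gadd45a and Gadd45b also passed after centring, where 71.7% of all genes did. Centring moved the median of all genes from -0.48 to -0.06. The count of members at 8 h was near the share of all genes and is no result about the members.

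The change from 4 to 8 h, CX-5461 minus BMH-21, differed for Xpc (0.46), Gadd45a (0.70), Gadd45b (1.52), Gadd45g (-0.68) and Rev3l (0.91), and after centring for each of these but Xpc. Of all genes, 69.4% differed in this way as deposited and 60.2% after centring.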

How the results depend on the processing

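The directions of Polk and Ercc5 (higher) and Gadd45a (lower) against control held under every alternative run, and Gadd45a lost its call in 2 fits that left out control replicate 2. Under other scalings the count of members past the test moved as follows. After 8 h of CX-5461 it was 8 centred or with voom weights and 9 with quantile normalization. Between the inhibitors it was 4 at 2 h centred or quantile and 5 with median-ratio factors or voom weights, 6 at 4 h centred and 5 with the other scalings, and 5 at 8 h with each scaling. From 2 to 4 h of CX-5461 it was 7 with median-ratio factors and 8 with voom weights. No pairing by replicate number was detected. Deviations of same-numbered libraries had a median correlation of 0 (-0.25 to 0.11), and those of different-numbered libraries 0.01 (-0.26 to 0.38). These correlations cannot show whether the numbers marked shared cultures or batches. A replicate block moved no count by over 1.5 times: at 8 h the counts against control stayed at 10 for BMH-21 and 5 for CX-5461, and 2 calls were lost, Xpc from 4 to 8 h of CX-5461 (0.25) and Polk from 2 to 4 h of BMH-21 (0.26). With the block and centring together the counts were 8 after 8 h of CX-5461 and 4, 6 and 5 between the inhibitors at 2, 4 and 8 h.

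Values against control that changed sign are given as centred (the same with the block), median-ratio, quantile and voom. Xpc was 0.09, 0.13, 0.11 and 0.14 at 4 h of BMH-21, 0.09, 0.13, 0.10 and 0.13 at 2 h and 0.11, 0.20, 0.15 and 0.21 at 4 h of CX-5461, -0.01 centred at 8 h of CX-5461, and 0.09, 0.01 and 0.08 in the last 3 at 8 h of BMH-21. Gadd45b at 2 h of CX-5461 was 0.04, 0.08, 0.04 and 0.08, and Polh at 8 h of CX-5461 was -0.21, -0.11, -0.37 and -0.08. Rev3l was 0.01, 0.02, 0.01 and 0.01 at 2 h and 0.01, 0.04, 0.05 and 0.05 at 4 h of BMH-21. Gadd45g at 4 h of BMH-21 was 0.06 centred, 0.09 median-ratio and 0.10 voom. Ddb2 was 0.05, 0.15 and 0.16 in those 3 at 4 h, and -0.09 centred and -0.36 quantile (limma adjusted p 0.004, past the test) at 8 h of CX-5461. From 4 to 8 h of CX-5461, Xpc was -0.12, -0.12, -0.11 and -0.08 and Rev3l -0.09, -0.09, -0.08 and -0.05. At 8 h between the inhibitors, Rrm2b was 0.04, 0.08, 0.02 and 0.03, and Polh 0.01 with median-ratio factors. The difference of the 4 to 8 h change was 0.02, -0.08, -0.01 and -0.03 for Xpc, and 0.16 for Gadd45a with median-ratio factors, past no threshold. The cause of these shifts was not tested.

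Calls near the threshold were also lost with no filter on low values or without the variance trend, for Rrm2b after 8 h of BMH-21 (0.28), Polk from 2 to 4 h of BMH-21 (0.26) and Rev3l from 4 to 8 h of CX-5461 (0.28). A fit of only the groups compared lost the first 2 and Gadd45b between the inhibitors at 4 h (0.34), and added Xpc at 8 h (0.20) and Rev3l at 2 h (-0.27) of CX-5461.

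Leaving out 1 library gave 1 to 2 members between the inhibitors at 2 h, 2 to 5 at 4 h, 3 to 4 from 2 to 4 h of BMH-21 and 3 to 7 from 4 to 8 h of CX-5461. It changed the sign of values near 0: Xpc at 4 h of CX-5461 (-0.12 to 0.02), Ddb2 at 4 h of CX-5461 (-0.25 to 0.01), Polh at 8 h of CX-5461 (-0.06 to 0.07), Rrm2b at 2 h of CX-5461 (-0.03 to 0.06), Gadd45g at 4 h of BMH-21 (-0.17 to 0.04) and Rev3l at 2 h of BMH-21 (-0.17 to 0.04). Promoters with a p53 pair numbered 1 with at most 2 mismatches and 0 with at most 1 or with 0. With 3 libraries a group, the SE given with each gene rests largely on the variance prior drawn from all genes. It understates the spread of Rev3l (SD within groups 0.23 against 0.15 used) and Rrm2b (0.20 against 0.16). Several differences larger than their SE did not pass, such as Rev3l at 2 h (-0.27) and Polh at 4 h (-0.26) of CX-5461.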
